A study of Mus musculus with 12 samples.

Results

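The unfolded protein response (UPR) and the chaperones of the endoplasmic reticulum (ER) were examined in the brain of irradiated mice as a group of 35 genes, taken by symbol. All 35 were among the 23183 genes listed, and 34 were expressed highly enough to be tested in each tissue. RNA sequencing had been carried out in 2 brain regions, cortex and hippocampus, from male C57BL/6 mice that were 7 weeks old at purchase and were kept for 1 week before the experiment. The IR group received a dose of 10 Gy to the whole brain, and the sham-irradiated group (Con, 0 Gy) was placed on the same platform without irradiation. Tissue was taken 3 months later, with 3 Con and 3 IR libraries for each region. The labels do not say whether the libraries came from separate mice, so the p values given here measure only the spread between these samples. The question asked of each gene was whether its mRNA level differed between IR and Con in the chronic phase after cranial irradiation.

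Secretory and membrane proteins fold in the ER, where the Hsp70-type chaperone BiP (*Hspa5*) and its cofactors bind unfolded chains, lectin chaperones hold glycoproteins, and protein disulfide isomerases form and shuffle disulfide bonds. When unfolded proteins accumulate, 3 membrane sensors respond. ATF6 is cleaved to a transcription factor, IRE1 (*Ern1*) splices *Xbp1* mRNA, and PERK (*Eif2ak3*) phosphorylates the initiation factor eIF2α, which slows translation and favors ATF4. ATF6 and spliced XBP1 are known to activate chaperone and ER-associated degradation (ERAD) genes, and ATF4 activates amino acid synthesis genes and *Ddit3*, which encodes CHOP.

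Expression is given as FPKM, the fragments of a gene per kilobase of its transcript, scaled by the number of fragments mapped. Library sums lay between 359773 and 393447 FPKM, and the depth in reads is unknown. The relative depth within a tissue, read from steps between low values, differed by at most 1.12 times. It was searched only within a narrow preset range of ratios, so a difference beyond that range would not have been found. The dentate granule cell gene *Prox1* had 1.69 to 2.23 FPKM in cortex libraries, and in hippocampus libraries 14.4 to 16.7 FPKM (Con) and 18.8 to 21.1 FPKM (IR). Some libraries stood apart. The summed FPKM of 8 choroid plexus markers was 442 in cortex IR 2 against 4.83 to 31.6 in the other cortex libraries, and was 1073 in hippocampus Con 2 and 1667 in hippocampus IR 1 against 23.4 to 67.2 in the other hippocampus libraries. In the hippocampus, an adjusted p under 0.05 was obtained for 4 genes with all 6 libraries and for 861 genes without Con 3. In bulk tissue, fewer cells of a type and less RNA per cell cannot be told apart.

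In the cortex, 30 of the 34 tested UPR genes had a log2 fold change above 0, where 50.5% of all 14065 tested genes did. The unadjusted p from limma was under 0.05, with a higher level in IR, for 14 members (8.16% of all tested genes) and, with a lower level, for 1 member, *Asns* (5.94%). The 14 were 9 of the 11 chaperones, 3 of the 7 isomerases and oxidases, *Xbp1* and *Ddit3*. None of them had an adjusted p under 0.05, which 0.725% of all tested genes had, and the lowest adjusted p of a member was 0.0778 from limma. The ratio of the group means was at least 1.5, at an unadjusted p under 0.05, for 3 members, *Hspa5*, *Sdf2l1* and *Pdia4* (1.07% of all genes). The median log2 fold change of the members was 0.12 and that of all tested genes 0.00162. All 3 IR libraries lay above all 3 Con libraries for 17 members (11.2% of all genes) and below them for 3 (9.09%).

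In the hippocampus, 28 of the 34 tested members had a log2 fold change above 0 (47.3% of 14043 genes). The unadjusted p from limma was under 0.05, with a higher level in IR, for 8 members (7.06%) and for none with a lower level (6.89%). No adjusted p of a member was under 0.05 (0.0285% of all genes), the lowest being 0.275 from limma. *Hspa5* was the 1 member with a ratio of the group means of at least 1.5 at an unadjusted p under 0.05 (0.976%). The median log2 fold change was 0.16 for the members and -0.00997 for all tested genes. The 3 IR libraries lay above the 3 Con libraries for 9 members (10.5%) and below them for 1 (9.36%). The p values are those of limma fitted across all genes, because 0.1 is the smallest p that an exact permutation test allows with 3 libraries in each group.

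**Figure D1:**
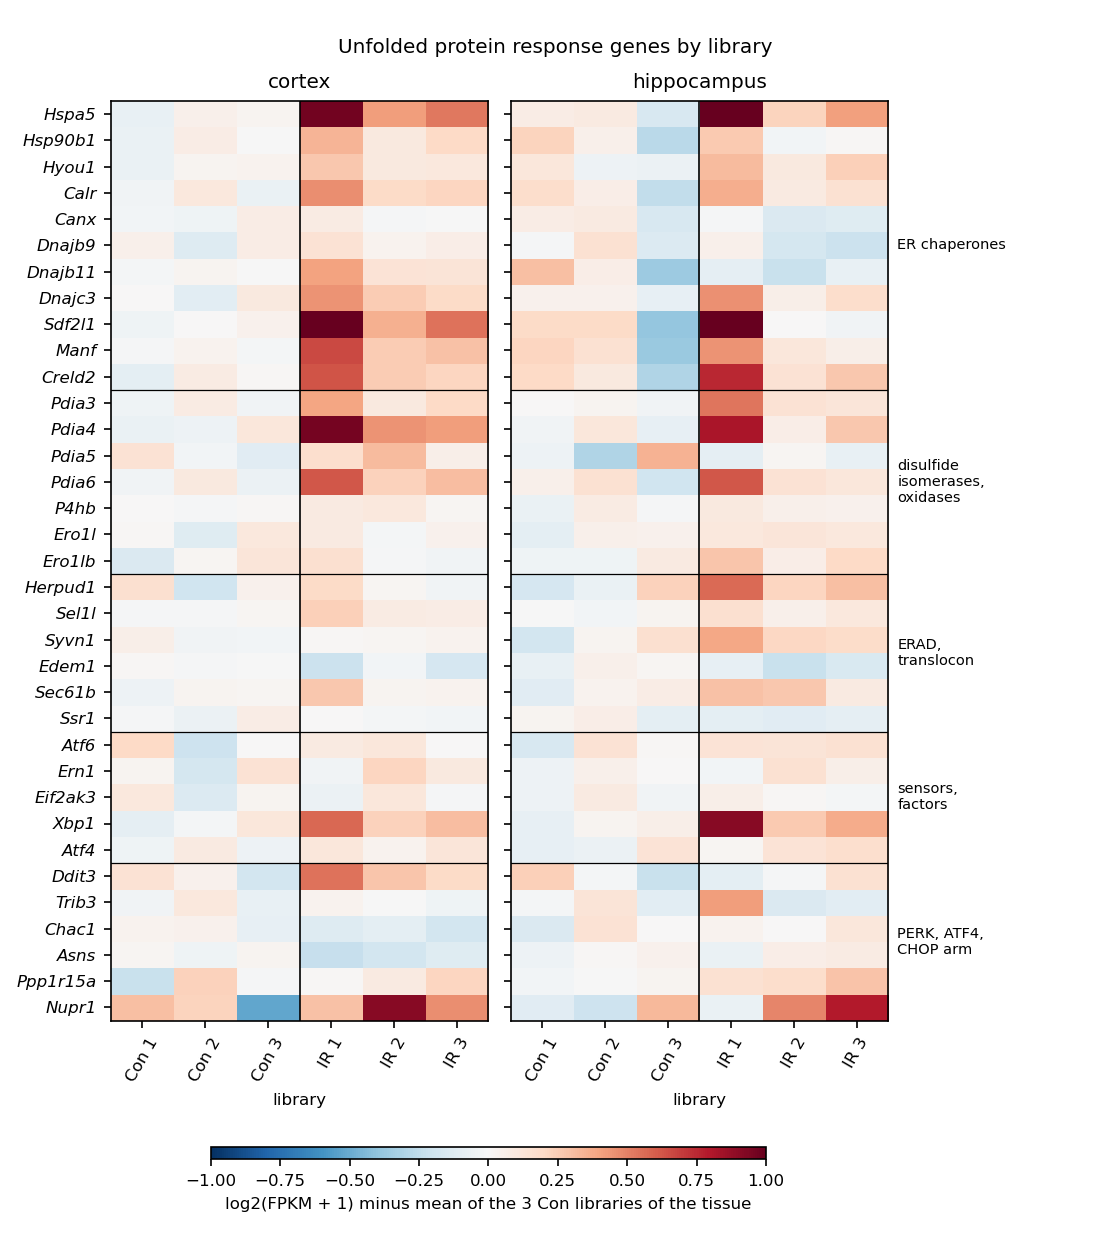
Each row is a member gene, ordered by role, and each column a library of the cortex (left) or hippocampus (right). Color gives log2(FPKM + 1) minus the mean of the 3 Con libraries of the tissue, from blue (lower) to red (higher), and differences beyond 1 have the end color. The IR 1 column is the reddest among the chaperones in both tissues, with *Sdf2l1* at the end of the scale in both (1.26 in each) and *Hspa5* in the hippocampus (1.03), and hippocampus Con 3 is below the Con mean for all 11 chaperones.

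IR 1 was the library that was most often the highest. It was the highest of the 6 libraries for 20 of the 34 members in the cortex (58.8%, against 19.6% of all tested genes) and for 18 in the hippocampus (52.9%, against 15.7%). It was highest in both tissues for 16 members. Among the 11 chaperones, this held for 11 in cortex and 8 in hippocampus libraries. It held for 1 of 5 sensors and factors in each tissue, and for 1 of 5 (cortex) and 0 of 5 (hippocampus) tested genes downstream of PERK, which had a median ratio of IR 1 to the mean of IR 2 and IR 3 of 0.947 and 0.905. The labels do not state whether IR 1 of the cortex and IR 1 of the hippocampus came from the same mouse. When IR 1 was left out of the cortex, 10 members kept a higher level in IR at an unadjusted p under 0.05 (5.05% of all genes), 1 remained lower (3.68%), and the median log2 fold change was 0.117. Without IR 1 of the hippocampus, 4 members were higher (4.55%), none was lower (3.79%), and the median was 0.116. IR 2 and IR 3 both lay above all 3 Con libraries for 18 members in the cortex (14.5% of all genes) and 12 in the hippocampus (14.9%).

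The chaperone group comprised BiP and GRP94 (*Hsp90b1*), the nucleotide exchange factor *Hyou1*, the lectins *Calr* and *Canx*, the J proteins *Dnajb9*, *Dnajb11* and *Dnajc3*, and the smaller ER proteins *Sdf2l1*, *Manf* and *Creld2*. In the cortex all 11 had a log2 fold change above 0 (50.5% of all genes, median 0.289). In 9 of them the unadjusted p was under 0.05 (8.16% of all genes, higher) and all IR libraries lay above the Con libraries (11.2%). The remaining 2, *Canx* and *Dnajb9*, overlapped between groups and had log2 fold changes of 0.02 and 0.08. In the hippocampus 8 of the 11 had a log2 fold change above 0 (median 0.21), and 2, *Hspa5* and *Hyou1*, had an unadjusted p under 0.05 (7.06%).

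*Hspa5* encodes BiP, the main ER Hsp70, which also holds the sensors in their inactive state. In the cortex it was listed at 70.8, 77.0 and 75.8 FPKM in Con 1 to 3 and at 146, 99.96 and 107 FPKM in IR 1 to 3. Every IR library exceeded every Con library, and IR 1 stood well above the other two. The group means were 74.5 ± 3.29 and 118 ± 24.8 FPKM (SD, n = 3), a ratio of 1.58, and the log2 fold change was 0.64 (standard error 0.125, unadjusted p = 0.00083, adjusted p = 0.0778 from limma). Without IR 1 the log2 fold change was 0.47 (unadjusted p = 7.1e-05, adjusted p = 0.0506 from limma). In the hippocampus *Hspa5* was listed at 85.3, 86.2 and 72.5 FPKM in Con and at 166, 94.8 and 108 FPKM in IR. The groups again did not overlap, but IR 2 was only slightly above Con 2. That gave 0.55 on the log2 scale (standard error 0.189, unadjusted p = 0.0195, adjusted p = 0.30 from limma), and 0.31 without IR 1 (unadjusted p = 0.0207 from limma). Without Con 3 it was 0.47, at an unadjusted p of 0.0993 from limma.

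*Sdf2l1*, which encodes an ER-resident cofactor of the BiP and J protein system, had the largest fold of the members in the cortex. It was listed there at 6.25, 6.49 and 6.70 FPKM in Con and at 16.9, 8.57 and 9.88 FPKM in IR. The Con libraries lay close together, and IR 1 was 1.83 times the mean of IR 2 and IR 3. This was a log2 fold change of 0.72 with a 95% confidence interval of 0.23 to 1.20 (unadjusted p = 0.00948, adjusted p = 0.203 from limma), and 0.45 without IR 1 (unadjusted p = 0.00064 from limma). The gene was not called without Con 2 or in the single fit of all 12 libraries (unadjusted p = 0.0532 and 0.0695 from limma). In the hippocampus it was listed at 9.79, 9.81 and 6.23 FPKM in Con and at 21.5, 8.49 and 8.20 FPKM in IR. There only IR 1 exceeded the Con libraries, and IR 2 and IR 3 lay between Con 3 and the other Con libraries. The log2 fold change was 0.41 (unadjusted p = 0.303 from limma) with all libraries and -0.02 without IR 1.

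*Manf* and *Creld2* encode small secreted or ER-retained proteins that are known targets of ER stress. In the cortex *Manf* was listed at 14.0, 14.5 and 13.9 FPKM in Con and at 22.9, 17.1 and 17.6 FPKM in IR. *Creld2* was listed at 6.73, 7.78 and 7.36 FPKM in Con and at 11.8, 8.90 and 8.61 FPKM in IR. Both were highest in IR 1 without overlap between groups, and the log2 fold changes were 0.40 and 0.37 (unadjusted p = 0.00222 and 0.00718 from limma). Without IR 1 they were 0.28 and 0.24. In the hippocampus *Manf* was listed at 18.3, 17.4 and 11.8 FPKM in Con and at 21.7, 17.0 and 16.3 FPKM in IR, and *Creld2* at 8.77, 8.13 and 5.91 FPKM in Con and at 13.4, 8.39 and 9.24 FPKM in IR. In these genes IR 2 or both IR 2 and IR 3 lay within the range of Con, and Con 3 was the lowest library. The log2 fold changes were 0.21 and 0.39 (unadjusted p = 0.243 and 0.064 from limma).

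The abundant chaperones *Hsp90b1* and *Calr*, which encode GRP94 and calreticulin, differed less in proportion. Cortex *Hsp90b1* was listed at 101, 112 and 106 FPKM in Con and at 135, 114 and 123 FPKM in IR, and *Calr* at 156, 172 and 153 FPKM in Con and at 221, 183 and 186 FPKM in IR. The groups did not overlap, although IR 2 of *Hsp90b1* was barely above Con 2. The log2 fold changes were 0.21 and 0.29 (unadjusted p = 0.0113 and 0.00475 from limma), and without IR 1 they were 0.15 and 0.20 (unadjusted p = 0.0564 and 0.0181 from limma). *Hsp90b1* was also not called in the single fit of all 12 libraries (unadjusted p = 0.0851 from limma). In the hippocampus *Hsp90b1* was listed at 136, 120.4 and 96.2 FPKM in Con and at 139.7, 114 and 117 FPKM in IR. *Calr* was listed there at 207, 191 and 154 FPKM in Con and at 235, 194 and 203 FPKM in IR. The groups overlapped in both genes, with log2 fold changes of 0.08 and 0.20 (unadjusted p = 0.545 and 0.135 from limma).

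*Hyou1* encodes a large Hsp70-type protein that exchanges the nucleotide of BiP. It was listed at 22.1, 23.6 and 23.7 FPKM in Con and at 28.1, 24.8 and 25.0 FPKM in IR of the cortex, and at 28.7, 25.5 and 25.4 FPKM in Con and at 33.3, 28.4 and 31.4 FPKM in IR of the hippocampus. The cortex groups did not overlap, and in the hippocampus Con 1 was just above IR 2. The log2 fold changes were 0.16 and 0.22 (unadjusted p = 0.0346 and 0.0278 from limma), and without IR 1 neither was under 0.05 (unadjusted p = 0.151 and 0.102 from limma). The cortex call was also lost without Con 1 and the hippocampus call without Con 2, Con 3 or IR 3 (unadjusted p = 0.117, 0.0854, 0.0643 and 0.076 from limma). With all libraries, the cortex call was lost under quantile normalization and without trend or robust prior (unadjusted p = 0.0549 and 0.0564 from limma). It was also lost with library number as a replicate block and in the single fit of all 12 libraries (0.063 and 0.0557).

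*Dnajb11* and *Dnajc3* encode J proteins that recruit BiP to its clients. In the cortex *Dnajb11* was listed at 23.6, 24.5 and 23.9 FPKM in Con and at 32.0, 26.5 and 26.3 FPKM in IR, and *Dnajc3* at 10.7, 9.90 and 11.5 FPKM in Con and at 15.0, 13.0 and 12.3 FPKM in IR. All IR libraries were above all Con libraries, with log2 fold changes of 0.22 and 0.30 (unadjusted p = 0.0156 and 0.00494 from limma). Without IR 1 they were 0.13 and 0.22 (unadjusted p = 0.0569 and 0.0234 from limma), and *Dnajb11* had an unadjusted p of 0.114 in the single fit of all 12 libraries. In the hippocampus *Dnajb11* was listed at 34.99, 29.5 and 21.7 FPKM in Con and at 26.4, 24.0 and 26.7 FPKM in IR. *Dnajc3* was listed at 13.3, 13.3 and 12.2 FPKM in Con and at 18.1, 13.5 and 14.7 FPKM in IR. The Con libraries of *Dnajb11* spanned the IR libraries, whereas those of *Dnajc3* lay below them, with log2 fold changes of -0.13 and 0.23 (unadjusted p = 0.412 and 0.0592 from limma).

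**Figure D2:**
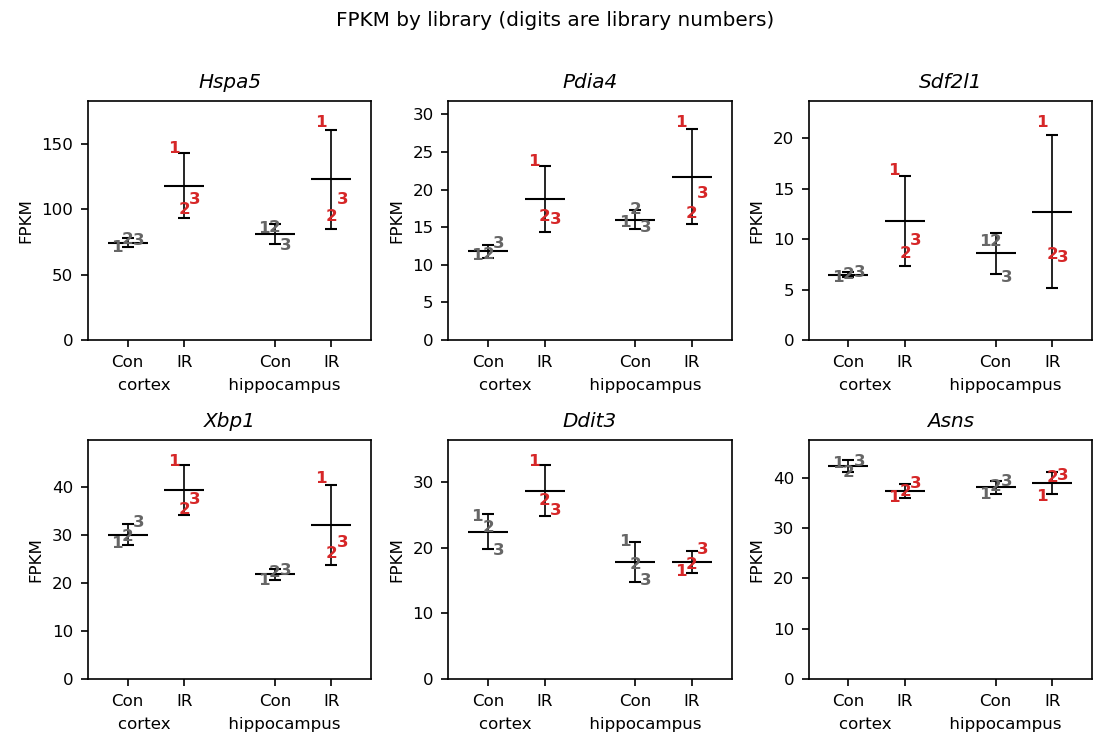
FPKM on the vertical axis is shown for 6 members in Con (grey) and IR (red) of each tissue, with the library number as the point, a bar at the mean and whiskers of 1 SD (n = 3). In *Hspa5*, *Pdia4*, *Sdf2l1* and *Xbp1* the number 1 of IR is the topmost point in both tissues, whereas for *Asns* in the cortex the 3 IR libraries (36.0 to 38.8 FPKM) lie below the 3 Con libraries (41.0 to 43.1 FPKM).

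The disulfide isomerase group of 5 isomerases and 2 oxidases had 7 log2 fold changes above 0 in the cortex (50.5% of all genes, median 0.181), of which 3 had an unadjusted p under 0.05 (8.16%), and 6 in the hippocampus (47.3%, median 0.18), of which 1 did (7.06%), a share near that of all genes. *Pdia4* had the largest fold of this group. In the cortex it was listed at 11.2, 11.3 and 12.8 FPKM in Con and at 23.8, 16.4 and 16.1 FPKM in IR. Each IR library was above each Con library, and IR 1 was 1.47 times the mean of the other IR libraries. The means were 11.8 ± 0.876 and 18.7 ± 4.36 FPKM (SD, n = 3). This was a log2 fold change of 0.61 (standard error 0.133, unadjusted p = 0.00141, adjusted p = 0.093 from limma), and 0.43 without IR 1 (unadjusted p = 0.000407 from limma). In the hippocampus it was listed at 15.6, 17.4 and 15.0 FPKM in Con and at 28.9, 16.8 and 19.5 FPKM in IR. IR 2 lay between Con libraries there, and the log2 fold change was 0.39 (unadjusted p = 0.0546 from limma).

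*Pdia6*, an isomerase that also binds the luminal side of IRE1, was listed at 34.1, 37.6 and 33.5 FPKM in Con and at 54.5, 41.2 and 43.5 FPKM in IR of the cortex. *Pdia3*, the isomerase that works with calnexin and calreticulin, was listed at 52.8, 57.7 and 53.1 FPKM in Con and at 71.9, 58.3 and 62.6 FPKM in IR. In both genes the groups were separate, and IR 2 was close to Con 2. The log2 fold changes were 0.39 and 0.23 (unadjusted p = 0.00275 and 0.014 from limma), and without IR 1 they were 0.27 and 0.15 (unadjusted p = 0.00487 and 0.0594 from limma). In the hippocampus *Pdia6* was listed at 43.5, 46.8 and 36.5 FPKM in Con and at 65.2, 46.5 and 45.4 FPKM in IR, and *Pdia3* at 57.9, 58.8 and 56.3 FPKM in Con and at 83.9, 63.8 and 62.9 FPKM in IR. The groups overlapped for *Pdia6* (log2 fold change 0.29, unadjusted p = 0.0837 from limma) and were separate for *Pdia3* (0.27, unadjusted p = 0.0406 from limma). The *Pdia3* call was lost without IR 1 or any of the Con libraries (unadjusted p of 0.0707 to 0.0958). It was also lost with no filter on low FPKM and without trend or robust prior (unadjusted p = 0.0507 and 0.0529 from limma). The general isomerase *P4hb*, the low isomerase *Pdia5* and the oxidases *Ero1l* and *Ero1lb* had unadjusted p of 0.127 to 0.67 in the cortex and of 0.0697 to 0.764 in the hippocampus.

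None of the 3 sensors had an unadjusted p under 0.05 with all libraries. *Atf6* was listed at 16.2, 12.01 and 14.1 FPKM in Con and at 15.0, 15.2 and 14.0 FPKM in IR of the cortex, and at 12.8, 16.0 and 14.5 FPKM in Con and at 15.9, 15.8 and 16.1 FPKM in IR of the hippocampus. *Ern1*, which encodes IRE1, was the lowest of the sensors, at 2.46, 2.01 and 2.76 FPKM in Con and at 2.32, 2.95 and 2.63 FPKM in IR of the cortex, and at 2.79, 3.05 and 2.92 FPKM in Con and at 2.85, 3.36 and 3.08 FPKM in IR of the hippocampus. *Eif2ak3*, which encodes PERK, was listed at 7.72, 6.37 and 7.25 FPKM in Con and at 6.76, 7.77 and 7.01 FPKM in IR of the cortex, and at 5.94, 6.62 and 5.99 FPKM in Con and at 6.46, 6.25 and 6.10 FPKM in IR of the hippocampus. Con and IR overlapped for each sensor in each tissue. The log2 fold changes were 0.07, 0.09 and 0.01 in the cortex (unadjusted p = 0.483, 0.416 and 0.873 from limma) and 0.14, 0.06 and 0.02 in the hippocampus (unadjusted p = 0.131, 0.486 and 0.81 from limma). The 95% confidence intervals reached from -0.14 to 0.28 for *Atf6*, from -0.15 to 0.34 for *Ern1* and from -0.17 to 0.20 for *Eif2ak3* in the cortex. In the hippocampus they reached from -0.05 to 0.33, from -0.13 to 0.26 and from -0.15 to 0.19. Without hippocampus Con 2, *Atf6* was called there (log2 fold change 0.21, unadjusted p = 0.0309, adjusted p = 0.52 from limma).

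*Xbp1* encodes the transcription factor of the IRE1 branch. In the cortex it was listed at 28.1, 29.5 and 32.5 FPKM in Con and at 45.2, 35.3 and 37.3 FPKM in IR. In the hippocampus it was listed at 20.4, 22.2 and 22.6 FPKM in Con and at 41.6, 26.2 and 28.4 FPKM in IR. All IR libraries were above all Con libraries in both tissues, with IR 1 highest. The log2 fold change was 0.37 in the cortex (standard error 0.0911, unadjusted p = 0.00248, adjusted p = 0.119 from limma) and 0.51 in the hippocampus (standard error 0.154, unadjusted p = 0.0102, adjusted p = 0.275 from limma). Without IR 1 it was 0.27 and 0.32 (unadjusted p = 0.00692 and 0.00569 from limma). These values are of the whole gene and do not separate spliced from unspliced *Xbp1* mRNA.

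*Atf4*, the factor of the PERK branch, whose protein level is set mainly by translation, was listed at 54.7, 59.9 and 54.3 FPKM in Con and at 61.0, 57.5 and 61.3 FPKM in IR of the cortex. In the hippocampus it was listed at 37.2, 37.8 and 43.3 FPKM in Con and at 39.8, 43.3 and 44.3 FPKM in IR. The groups overlapped in both tissues, with log2 fold changes of 0.09 and 0.11 (unadjusted p = 0.148 and 0.22 from limma).

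The genes downstream of PERK did not share a direction in the cortex. Of the 6, *Trib3*, a pseudokinase gene, was below the expression filter in both tissues at 0.0286 to 0.523 FPKM, and 3 of the other 5 had a log2 fold change above 0. *Ddit3*, which encodes the stress factor CHOP, was listed at 24.8, 23.0 and 19.5 FPKM in Con and at 33.0, 27.2 and 25.7 FPKM in IR of the cortex. The IR libraries lay above the Con libraries, with a log2 fold change of 0.34 (standard error 0.105, unadjusted p = 0.00992, adjusted p = 0.206 from limma), and 0.23 without IR 1 (unadjusted p = 0.0405 from limma). *Asns*, which encodes asparagine synthetase, was listed at 42.9, 41.0 and 43.1 FPKM in Con and at 36.0, 37.2 and 38.8 FPKM in IR. Here the IR libraries lay below the Con libraries, with a log2 fold change of -0.18 (standard error 0.0528, unadjusted p = 0.00733, adjusted p = 0.186 from limma), and -0.15 without IR 1 (unadjusted p = 0.0346 from limma). *Chac1*, a glutathione-degrading enzyme gene, also had all 3 IR libraries below Con (2.84 to 3.07 against 3.12 to 3.48 FPKM, log2 fold change -0.14, unadjusted p = 0.129 from limma).

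In the hippocampus *Ddit3* was listed at 21.0, 17.4 and 14.9 FPKM in Con and at 16.4, 17.5 and 19.7 FPKM in IR, and *Asns* at 36.7, 38.3 and 39.2 FPKM in Con and at 36.3, 40.0 and 40.4 FPKM in IR. The groups overlapped in both genes, and the log2 fold changes were 0.02 and 0.03 (unadjusted p = 0.90 and 0.68 from limma). *Ppp1r15a* encodes GADD34, the phosphatase subunit that reverses eIF2α phosphorylation. It was listed at 4.47, 4.57 and 4.69 FPKM in Con and at 5.20, 5.31 and 5.79 FPKM in IR of the hippocampus. The 3 IR libraries were above the 3 Con libraries and IR 1 was the lowest of them, with a log2 fold change of 0.21 (unadjusted p = 0.0238, adjusted p = 0.318 from limma) and 0.23 without IR 1. The unadjusted p was 0.0572 without Con 1, 0.0949 without IR 3 and 0.0617 in the single fit of all 12 libraries (limma). In the cortex it was listed at 5.11, 7.38 and 6.07 FPKM in Con and at 6.18, 6.60 and 7.25 FPKM in IR, with overlap (log2 fold change 0.11, unadjusted p = 0.37 from limma).

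*Nupr1*, a small stress-response gene, was the member whose IR 1 value was lowest relative to IR 2 and IR 3, at 0.736 of their mean in the cortex and 0.536 in the hippocampus. Cortex values were 10.9, 10.3 and 5.72 FPKM in Con and 10.9, 17.2 and 12.3 FPKM in IR, and hippocampus values were 2.78, 2.54 and 4.12 FPKM in Con and 2.90, 4.74 and 6.08 FPKM in IR. IR 2 and IR 3 were above all Con libraries in both tissues and IR 1 was within the range of Con in both. The log2 fold changes were 0.56 and 0.40 (unadjusted p = 0.079 and 0.109 from limma), and 0.69 and 0.64 without IR 1 (unadjusted p = 0.0579 and 0.0088 from limma).

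ERAD returns misfolded proteins to the cytosol for degradation, and the translocon brings new chains in. None of the 6 members of this group had an unadjusted p under 0.05 in the cortex (median log2 fold change 0.0412, with 8.16% of all genes higher and 5.94% lower), and 3 of them did in the hippocampus (median 0.164), all with higher levels in IR (7.06% of all genes). *Herpud1*, an ER membrane protein of the degradation complex, was listed at 15.1, 16.3 and 20.2 FPKM in Con and at 25.7, 20.0 and 21.2 FPKM in IR of the hippocampus. Con 3 lay just above IR 2. The log2 fold change was 0.36 (unadjusted p = 0.0203, adjusted p = 0.305 from limma), 0.26 without IR 1 (unadjusted p = 0.0745, and 0.0658 and 0.0646 without Con 1 and Con 2) and 0.47 without Con 3 (adjusted p = 0.0469 from limma, in a fit with 6.13% of all genes at an adjusted p under 0.05). In the cortex it was listed at 27.7, 21.4 and 25.6 FPKM in Con and at 28.4, 25.1 and 24.2 FPKM in IR, with overlap and a log2 fold change of 0.06.

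*Syvn1*, the ubiquitin ligase HRD1 of ERAD, was listed at 12.7, 14.8 and 16.4 FPKM in Con and at 19.3, 16.9 and 16.7 FPKM in IR of the hippocampus, and at 15.9, 14.9 and 15.0 FPKM in Con and at 15.4, 15.5 and 15.7 FPKM in IR of the cortex. *Sec61b*, a subunit of the translocon, was listed at 24.9, 27.6 and 28.4 FPKM in Con and at 33.3, 32.6 and 28.8 FPKM in IR of the hippocampus, and at 28.0, 29.5 and 29.3 FPKM in Con and at 35.02, 29.5 and 29.6 FPKM in IR of the cortex. In the hippocampus the groups did not overlap, but the lowest IR library was within 0.5 FPKM of Con 3 in both genes. The hippocampus log2 fold changes were 0.26 and 0.22 (unadjusted p = 0.0332 and 0.0258 from limma, and 0.118 and 0.0905 without IR 1). Both calls were also lost without Con 1 (unadjusted p = 0.101 and 0.0819 from limma), *Syvn1* without Con 2 (0.0609) and *Sec61b* without IR 2 (0.087). In the cortex the log2 fold changes were 0.02 and 0.11 (unadjusted p = 0.671 and 0.155 from limma).

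*Sel1l*, the adaptor of HRD1, had all IR libraries above all Con libraries in both tissues (33.9 to 38.2 against 31.9 to 32.7 FPKM in the cortex and 37.0 to 40.0 against 34.9 to 36.4 FPKM in the hippocampus), with log2 fold changes of 0.13 and 0.11 (unadjusted p = 0.052 and 0.104 from limma). *Edem1*, a mannosidase-like lectin of ERAD, had all IR libraries below all Con libraries in both (4.09 to 4.78 against 4.86 to 4.96 FPKM, and 3.80 to 4.28 against 4.31 to 4.80 FPKM), with log2 fold changes of -0.14 and -0.15 (unadjusted p = 0.11 and 0.0932 from limma). The translocon-associated *Ssr1* had log2 fold changes of -0.01 and -0.10.

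**Figure D3:**
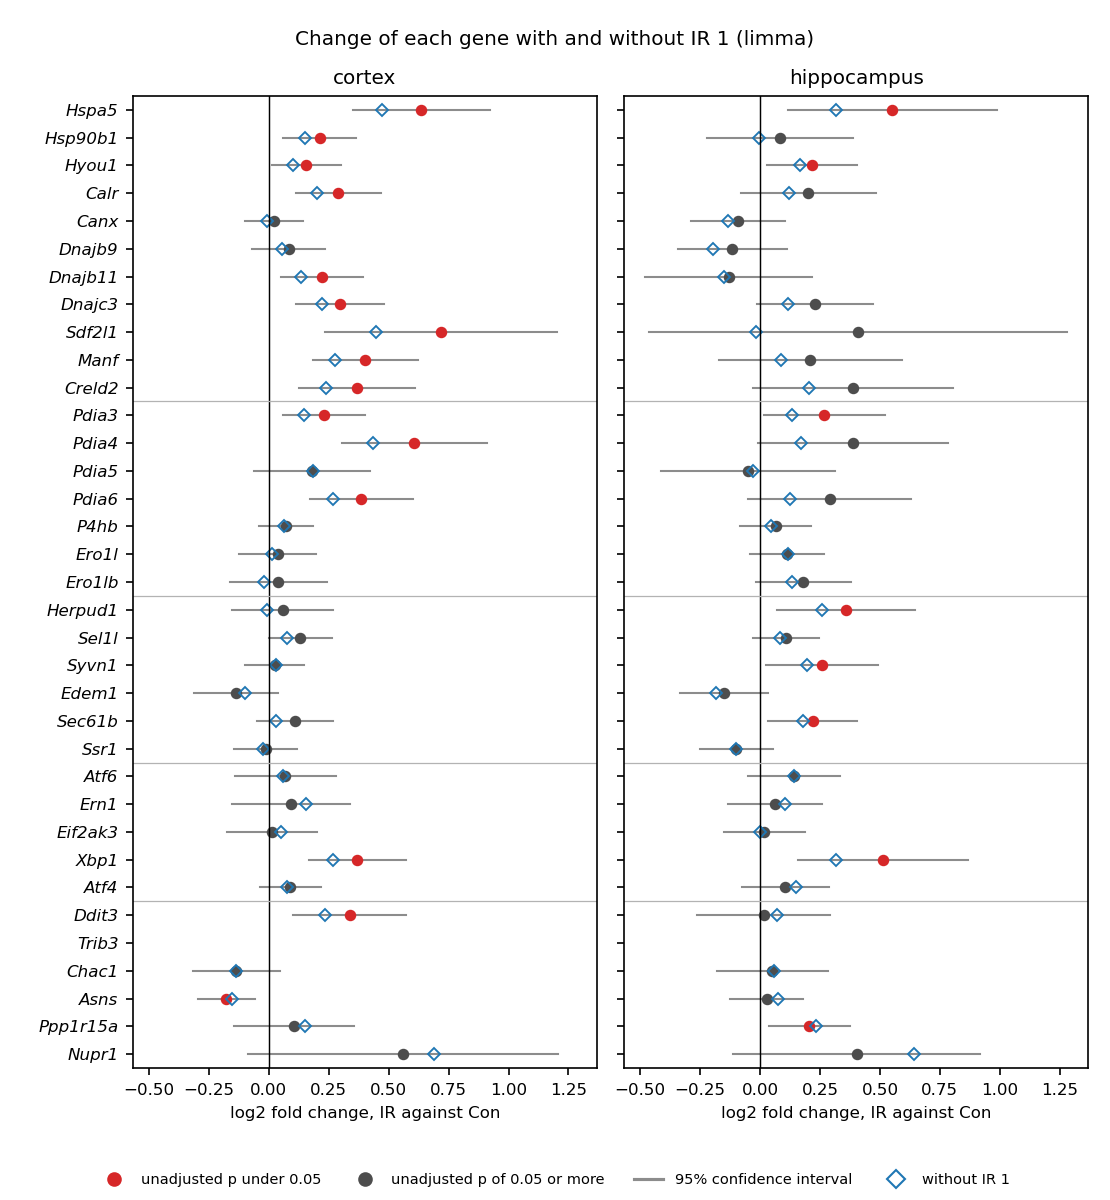
The log2 fold change of IR against Con on the horizontal axis is shown for each member, with its 95% confidence interval, in the cortex (left) and hippocampus (right). Red points have an unadjusted limma p under 0.05 and open diamonds give the value without IR 1. For the chaperones and isomerases called in the cortex the diamonds lie closer to 0 than the points but remain above it, while hippocampus *Sdf2l1* moves from 0.41 to -0.02.

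Promoter sequence was compared with these values, because ATF6 and XBP1 are known to act through the ER stress response element (ERSE), a CCAAT part and a CCACG part separated by 9 bases. Promoter windows of 250 bases before to 50 bases after the RefSeq start on GRCm38.p6 matched 32 of the 35 members, *Hyou1*, *Manf* and *Atf6* having no entry. A full ERSE on either strand was held by 39 of 32851 windows (0.119%), and by 9 of the 32 members (28.1%), namely *Hspa5*, *Hsp90b1*, *Calr*, *Canx*, *Dnajc3*, *Creld2*, *Pdia6*, *Ero1lb* and *Syvn1*. ERSE-II (ATTGG and CCACG separated by 1 base) was held by 0.0365% of windows and by 2 members, *Dnajb11* and *Herpud1*. The UPR element core TGACGTGG was in 0.676% of windows and in none of the members' windows. Below are the ERSE stretches of the 6 members that hold one and were higher in the irradiated cortex at an unadjusted p under 0.05, read 5′ to 3′ on the strand of the gene, with both parts in capitals. Where the match was antisense the parts read CGTGG and ATTGG.
Hspa5, chr2:34772020-34772048 (+): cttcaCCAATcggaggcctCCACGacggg
Hsp90b1, chr10:86705633-86705661 (-): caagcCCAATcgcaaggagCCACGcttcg
Hsp90b1, chr10:86705528-86705556 (-): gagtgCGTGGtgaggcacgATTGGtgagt
Calr, chr8:84847070-84847098 (-): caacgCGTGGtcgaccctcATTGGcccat
Dnajc3, chr14:118937822-118937850 (+): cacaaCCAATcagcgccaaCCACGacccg
Creld2, chr15:88819515-88819543 (+): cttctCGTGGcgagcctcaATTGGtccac
Pdia6, chr12:17266486-17266514 (+): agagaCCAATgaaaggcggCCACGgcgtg

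*Hsp90b1* was the member with a pair of these elements, 212 to 194 and 107 to 89 bases before its start. The *Hspa5* element lay 65 to 47 bases before the RefSeq start. Its stretch overlapped an exon of *Hspa5* in the GENCODE annotation of the same build. The other printed elements outside *Hsp90b1* lay 162 to 80 bases before the start. Apart from that of *Hspa5*, no printed ERSE stretch overlapped the annotated span of its own gene, and other genes were not searched. In the cortex all 9 members with an ERSE had a log2 fold change above 0 (50.5% of all genes, median 0.289), and 6 had an unadjusted p under 0.05 with a higher level in IR (8.16%). Of the 22 tested members with a window but no ERSE, 18 were above 0 (median 0.0994), with 6 higher and 1 lower (5.94% of all genes) at that p. The 9 tested genes outside the group that hold an ERSE had a median of 0.0309, with none at that p. In the hippocampus the medians were 0.23, 0.0847 and 0.106 for members with an ERSE, members without and the 8 other genes. There 2 of the 9 members with an ERSE and 5 of the 22 without were higher at that p, and none of the other genes (7.06% of all genes). *Canx*, *Ero1lb* and *Syvn1* hold an ERSE and had cortex log2 fold changes of 0.02 to 0.04, whereas *Pdia4* and *Sdf2l1* hold none of these elements in the window and had 0.61 and 0.72. A match or its absence in this window is a description of its letters.

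ATF4 binds with a C/EBP partner at the C/EBP-ATF response element (CARE), whose core was searched as TGATGNAA. This core was in 3.97% of all windows and in those of 5 members, *Herpud1*, *Trib3*, *Chac1*, *Asns* and *Nupr1*. The stretches of the 4 tested members are shown, chosen after their values were seen, because the cortex levels of these genes did not move one way, with the core or its reverse complement in capitals.
Herpud1, chr8:94386312-94386329 (+): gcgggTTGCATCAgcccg
Chac1, chr2:119351044-119351061 (+): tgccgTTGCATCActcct
Asns, chr6:7693220-7693237 (-): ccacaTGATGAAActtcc
Nupr1, chr7:126625568-126625585 (-): ccagaTTGCATCAgacag

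The antisense cores of *Herpud1*, *Chac1* and *Nupr1* share the same 8 letters, and the *Asns* core, 23 to 16 bases before the start, is the sense match. The *Asns* and *Nupr1* stretches overlap an annotated exon of their own gene. The *Herpud1* and *Chac1* stretches do not overlap the annotated span of theirs, and other genes were not searched. In the cortex 2 of these 4 genes had a log2 fold change above 0 (median -0.0388) and *Asns* had an unadjusted p under 0.05 with a lower level in IR. In the hippocampus all 4 were above 0 (median 0.205), *Herpud1* at that p. The 271 other tested cortex genes with the core had a median of 0.00103.

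**Figure D4:**
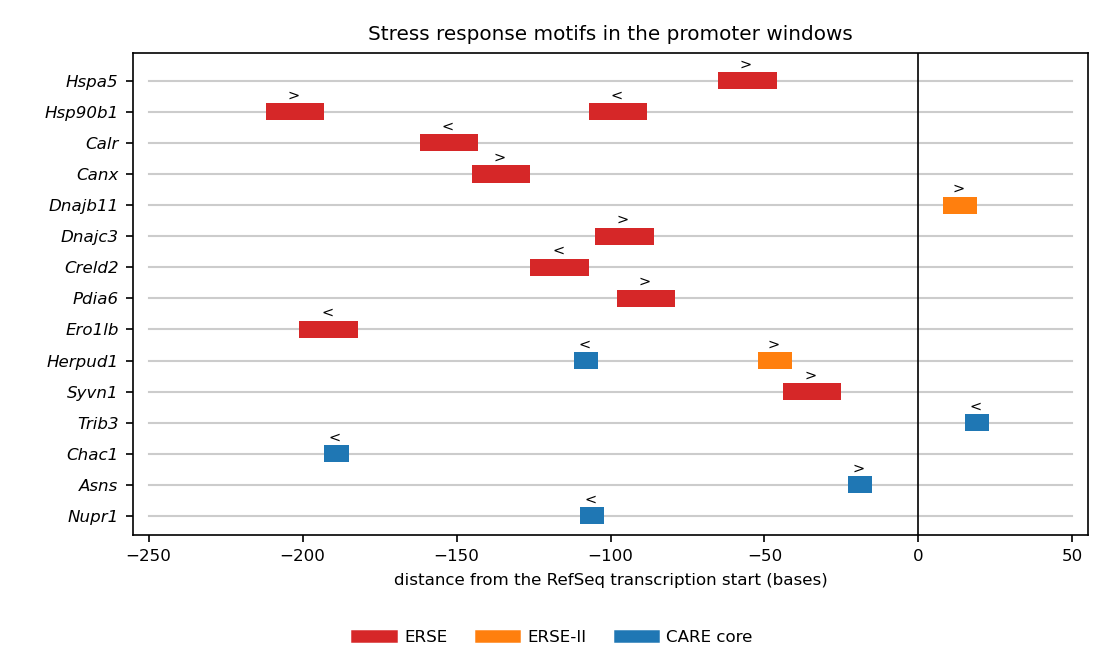
Each line is the promoter window of a member, with bases from the RefSeq start on the horizontal axis, and boxes mark matches to ERSE (red), ERSE-II (orange) and the CARE core (blue), with arrowheads for the strand of the motif. Of the 15 members shown, *Hsp90b1* has 2 ERSE boxes and *Herpud1* has both an ERSE-II and a CARE box.

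The 2 regions were compared next. *Hspa5*, *Hyou1*, *Pdia3* and *Xbp1* had an unadjusted p under 0.05 with higher levels in IR in both, which was 11.8% of the 34 tested members, against 1.6% of the 13649 genes tested in both. These 4 were 28.6% of the 14 cortex members, against 19.3% for all genes higher in the cortex, and 50% of the 8 hippocampus members, against 22.6%. IR 2 and IR 3 lay above all Con libraries in both tissues for 7 members, *Hspa5*, *Dnajc3*, *Pdia3*, *Sel1l*, *Sec61b*, *Xbp1* and *Nupr1* (3.5% of all genes). The log2 fold change was above 0 in both tissues for 26 members (27.5% of all genes) and was higher in the cortex for 19 (54.5%). The interaction of irradiation and tissue, tested with limma over all 12 libraries, gave an adjusted p under 0.05 for no member (0.0823% of 14577 genes) and an unadjusted p under 0.05 for *Asns* alone (10.3% of all genes). For *Asns* the hippocampus change exceeded the cortex change by 0.21 on the log2 scale (unadjusted p = 0.0252, adjusted p = 0.421 from limma). The next lowest unadjusted limma p of the interaction were 0.0659 for *Syvn1* (0.23 higher in the hippocampus), 0.0798 for *Dnajb11* (-0.35, higher in the cortex) and 0.0936 for *Ddit3* (-0.32), so with all libraries no chaperone had an interaction at that p. Without hippocampus IR 1, 4 members did (8.79% of all genes), *Asns* and, with the higher change in the cortex, *Dnajb9* (-0.28), *Sdf2l1* (-0.73) and *Pdia4* (-0.44), at unadjusted p of 0.0364 to 0.0427 and adjusted p of 0.533 to 0.549 from limma for these 3.

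Without hippocampus Con 3, the interaction had an unadjusted p under 0.05 for 8 members, *Asns*, *Canx*, *Ddit3*, *Dnajb11*, *Dnajb9*, *Herpud1*, *Manf* and *Syvn1* (19.8% of all genes), and an adjusted p of 0.0408 for *Dnajb11* from limma (log2 difference -0.53), where 3.29% of all genes had an adjusted p under 0.05. Con 3 was the lowest hippocampus library for 14 of the 34 members (15.8% of all genes) and for 10 of the 11 chaperones, and Con 1 was the lowest for 13 members (22.5%) and no chaperone. When Con 3 was left out within the hippocampus, 8 members were higher at an unadjusted p under 0.05 (10.8% of all genes), namely *Atf4*, *Ero1lb*, *Herpud1*, *Nupr1*, *Ppp1r15a*, *Sec61b*, *Syvn1* and *Xbp1*. There *Canx*, *Dnajb11* and *Ssr1* were lower in IR at an unadjusted p under 0.05 (15% of all genes, limma log2 fold changes -0.17, -0.31 and -0.15), and *Hspa5* was not called (unadjusted p = 0.0993 from limma).

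Choroid plexus markers and chaperones did not mark the same libraries throughout. The median chaperone of cortex IR 1 was 0.448 above the Con mean on the log2(FPKM + 1) scale, with a choroid plexus marker sum of 17.9 FPKM, within the 4.83 to 31.6 FPKM of Con. Cortex IR 2, with a marker sum of 442 FPKM, had a median chaperone of 0.189, against 0.20 in IR 3. In the hippocampus, IR 1 had the highest value of 7 of the 8 markers (*Ttr* 1582 FPKM) and a median chaperone of 0.364, while Con 2, with *Ttr* at 1005 FPKM, had 0.0872 and Con 1, with *Ttr* at 16.7 FPKM, had 0.178. At an unadjusted limma p under 0.05, 8.16% of all tested genes were higher and 5.94% lower in the irradiated cortex. In the irradiated hippocampus 7.06% were higher and 6.89% lower. Endothelial markers were higher in IR at that p for 3 of 6 genes in the cortex and 2 of 6 in the hippocampus. Their cortex sums were 65.1 to 76.8 against 54.6 to 64.5 FPKM, and their hippocampus sums 61.2 to 64.0 against 50.3 to 55.7 FPKM. Oligodendrocyte markers were higher for 3 of 6 in the cortex (sum 1306 to 1583 against 1050.0 to 1302 FPKM) and lower for 2 of 6 in the hippocampus (1001 to 1265 against 1072 to 1308 FPKM). Microglial markers were lower for 2 of 6 in the cortex (sum 66.7 to 88.4 against 88.9 to 94.1 FPKM) and for 5 of 6 in the hippocampus (65.9 to 73.4 against 88.3 to 98.5 FPKM), and astrocyte markers for 3 of 6 in the hippocampus (389.7 to 424 against 405 to 497 FPKM). Among 5 hippocampus markers, *Prox1* was higher in the irradiated hippocampus at that p (log2 fold change 0.30, unadjusted p = 0.00465 from limma, and 0.0211 without IR 1), and the other 4 were not called in either tissue. General neuron markers had none at that p in either tissue, fibroblast sums overlapped between groups, and plasma cell markers, from a highly secretory cell, summed to at most 1.40 FPKM. The part of these cell types in the chaperone values was not tested.

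**Figure D5:**
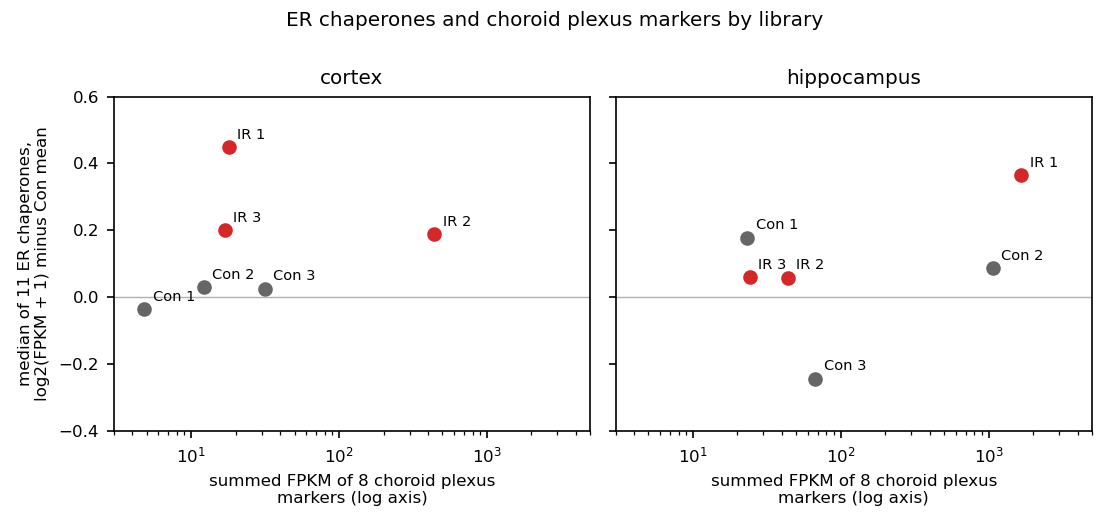
Each point is a library, with the summed FPKM of 8 choroid plexus markers on a log axis and the median over 11 chaperones of log2(FPKM + 1) minus the Con mean on the vertical axis, Con in grey and IR in red. Cortex IR 1 is highest in chaperones at a low marker sum (17.9 FPKM), whereas hippocampus IR 1 is highest in both measures (1667 FPKM).

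Levels of the members spanned a wide range per transcript length. In Con, *Calr* was the highest (161 ± 10.5 FPKM in the cortex and 184 ± 27.0 FPKM in the hippocampus, SD, n = 3), followed by *Hsp90b1*, *Canx* and *Hspa5* as the other members of the top 4 in both tissues, and *Trib3* was the lowest (0.180 ± 0.0792 and 0.142 ± 0.0946 FPKM). The neighbors *Canx* and *Hspa5* in the cortex were not separate by more than their spread. In the hippocampus Con libraries *Canx* (82.8 to 98.8 FPKM) overlapped both *Hspa5* (72.5 to 86.2 FPKM) and *Hsp90b1* (96.2 to 136 FPKM). Con libraries of the hippocampus lay above those of the cortex for 6 members (17.6% of the 34 tested in both, against 26.5% of all genes tested in both). They lay below for 9 (26.5%, against 22.5%). The first share was under that of all genes and the second near it. The libraries overlapped for the other 20, which include the untested *Trib3*. The 6 were *Hyou1*, *Canx*, *Dnajc3*, *Pdia4*, *Sel1l* and *Ern1* (ratios 1.11 to 1.36), and the 9 were *Xbp1*, *Atf4*, *Chac1*, *Asns*, *Ppp1r15a*, *Nupr1*, *Herpud1*, *Edem1* and *Ero1lb* (ratios 0.351 to 0.938). The headers of the value columns end in a suffix that differs between the tissues and whose meaning is not given in the sources used here, so whatever it marks and the region cannot be told apart.

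A wider list of 104 ER folding, ERAD, stress sensor and ATF4 target genes was examined in the same fits. In the cortex 97 were tested, 11 had an unadjusted p under 0.05 with higher and 4 with lower levels in IR (8.16% and 5.94% of all genes), and the median log2 fold change was 0.0121. In the hippocampus 98 were tested, with 9 higher, 5 lower (7.06% and 6.89%) and a median of 0.00572. These counts are near the shares over all genes. IR 1 was the highest library for 23.7% and 23.5% of them, against 58.8% and 52.9% of the 34 tested members. The members and the list were chosen with earlier results of these data known, so this contrast is a description. By group, the other folding and glycosylation genes had 5 higher and 2 lower of 25 in the cortex and 1 higher of 25 in the hippocampus, the other ERAD and transport genes 3 higher of 29 and 2 higher and 1 lower of 29, the other sensors and regulators 0 of 18 and 2 higher and 1 lower of 18, and the other ATF4 targets 3 higher and 2 lower of 25 and 4 higher and 3 lower of 26.

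The cortex genes of this list with the lowest p were *Dnajc1*, an ER membrane J protein (means of 5.78 ± 0.152 FPKM for Con and 7.51 ± 0.55 FPKM for IR, SD, n = 3, log2 fold change 0.33, adjusted p = 0.0916 from limma), the aminotransferase *Gpt2* (12.1 ± 0.467 and 14.9 ± 0.815 FPKM, 0.27, adjusted p = 0.0934), the prolyl isomerase *Fkbp14* (0.38), the serine synthesis enzyme *Psat1* (0.17) and the amino acid transporter *Slc7a5* (-0.21, with an unadjusted p of 0.0587 without IR 1). None of these had an adjusted p past the threshold. In the hippocampus they were the ER-bound factor *Creb3l1* (1.23 ± 0.156 and 2.01 ± 0.157 FPKM, SD, n = 3, log2 fold change 0.43, adjusted p = 0.23 from limma), the ER lectin *Erlec1* (-0.30), *Psat1* (-0.25), *Phgdh*, the enzyme that opens serine synthesis (-0.20), and *Sesn2*, a stress-induced regulator of nutrient signaling (0.29), with adjusted p of 0.23 to 0.278.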

How the data were processed

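RNA was sequenced from the cortex and hippocampus of Con and IR mice, with 3 libraries per group and 12 in all. FPKM were computed by the authors before they were deposited. For this, per the study's methods, the authors used FASTX_Trimmer and BBMap for trimming, TopHat for alignment, Cufflinks for quantification and edgeR for a geometric normalization. The submitters' processing notes name mm10, and the annotation is not given in the sources used here. The methods name an RNeasy kit and poly(A) selection and the labels name Trizol and total RNA. No counts were used here, so depth in reads is unknown and no counting interval is given.

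Groups were taken from the labels. A gene was tested where 3 or more of 6 libraries in a tissue (3 or more of 12 for the interaction) reached 0.5 FPKM. Values were fitted as log2(FPKM + 1) with limma 3.58.1 in R 4.3.3, with trend and robust prior, and p values were adjusted over all tested genes by Benjamini-Hochberg. Fold changes on this scale understate low genes. The study names a 2-tailed test, which was replaced by limma. The steps were tested on simulated data. An unadjusted p under 0.05 was used for counts of members, beside the share of all genes. Library values were given for members at that p in either tissue, for the sensors and their factors and, chosen after its values were seen, for *Nupr1*. Of the wider list the 5 lowest p per tissue were named. The members and lists were chosen with earlier results of these data known. Motifs were matched on both strands of RefSeq promoters (GRCm38.p6), 2 members through a synonym, and exons came from GENCODE M21. Protein sequences were not used here. Plots were made in Python 3.11.15 with matplotlib 3.10.9.

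The alternatives were no filter, a minimum of 1 FPKM throughout, a pseudocount of 0.1, quantile normalization, limma without trend or robust prior, a replicate block, all 12 libraries in a single fit, each library left out in turn and, chosen after seeing the data, both IR 1 libraries left out.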

Additional observations from a re-analysis of the deposited data

Results flagged for a closer look

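The change of *Asns* had an unadjusted p under 0.05 for the interaction with tissue, which did not pass adjustment. In the cortex all 3 IR libraries lay below all 3 Con libraries (log2 fold change -0.18), and in the hippocampus the groups overlapped (0.03). The difference was 0.206 on the log2 scale (unadjusted p = 0.0252, adjusted p = 0.421 from limma over 12 libraries), and it was between 0.179 and 0.253 when any library was left out. Its unadjusted p was above 0.05 without cortex Con 3, cortex IR 1, hippocampus Con 1, hippocampus IR 2 or hippocampus IR 3, the highest being 0.0648. It was the sole member of 34 at that p, where 10.3% of all genes were.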

How the results depend on the processing

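The number of members with an adjusted p under 0.05 was 0 in both tissues under every alternative that kept all libraries. Under those, 11 to 15 cortex members (6.57% to 8.62% of all genes) and 7 to 9 hippocampus members (5.19% to 8.95%) were higher at an unadjusted p under 0.05. The median log2 fold change was 0.110 to 0.131 in the cortex and 0.140 to 0.176 in the hippocampus. Quantile normalization turned cortex *Canx* to -0.00306. In the cortex 10 members (*Hspa5*, *Pdia4*, *Manf*, *Xbp1*, *Pdia6*, *Calr*, *Dnajc3*, *Creld2*, *Ddit3* and *Asns*) were called under all 14 settings, including each library left out, and in the hippocampus *Xbp1* was. The share of all genes called under every setting was not computed, so these counts have no background.

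Leaving out each library gave 10 to 15 cortex members higher (5.05% to 8.55% of all genes), 1 lower (3.68% to 6.52%) and a median of 0.117 to 0.154. In the hippocampus it gave 4 to 11 higher (4.55% to 10.8%), 0 to 3 lower (3.79% to 15%), 0 to 1 at an adjusted p under 0.05 (*Herpud1*, without Con 3, 0.0142% to 6.13%) and a median of 0.116 to 0.175, with 5 higher without Con 1, 5 without Con 2 and 4 without IR 1. The interaction count ranged from 0 to 8 unadjusted (7.4% to 19.8%) and from 0 to 1 adjusted (0% to 3.29%). It was 8 without hippocampus Con 3, 4 without hippocampus IR 1, 2 without cortex Con 2, and 1 with both IR 1 libraries left out. The causes were not tested. Over these fits the log2 fold change crossed 0 in the cortex for *Atf6* (-0.0342 to 0.168), *Canx* (-0.00933 to 0.0579), *Eif2ak3* (-0.0539 to 0.0677), *Ero1l* (-0.0235 to 0.0923), *Ero1lb* (-0.031 to 0.101), *Herpud1* (-0.0428 to 0.137), *Ppp1r15a* (-0.00603 to 0.222) and *Ssr1* (-0.0453 to 0.0233). In the hippocampus it did for *Chac1* (-0.0234 to 0.121), *Ddit3* (-0.0959 to 0.135), *Dnajb11* (-0.313 to 0.0198), *Eif2ak3* (-0.00616 to 0.0614), *Hsp90b1* (-0.0517 to 0.194), *Pdia5* (-0.198 to 0.124) and *Sdf2l1* (-0.0161 to 0.631).

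After removal of group means, same-numbered Con and IR libraries correlated across genes at 0.108, -0.109 and -0.0401 in the cortex and at -0.393, -0.154 and -0.0851 in the hippocampus (genes are not replicates), and 2 of 6 and 0 of 6 libraries correlated best with their own number, so the numbers were not taken as pairs. With the replicate block, 14 cortex members were higher and 1 lower (7.58% and 5.77% of all genes), and 8 hippocampus members were higher (5.19%). They were not the same ones as without the block. Cortex *Hyou1* and hippocampus *Sec61b* and *Syvn1* were no longer called, and *Nupr1* in both tissues and hippocampus *Creld2* were. With cortex and hippocampus libraries of the same group and number as a replicate block, 1 member had an interaction at an unadjusted p under 0.05 (10.3% of all genes).

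With 3 libraries per group and no read counts, counting error could not be separated from the spread between libraries, and differences below the intervals given were not detectable.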

Other observations

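*Psat1*, an enzyme of serine synthesis and a known ATF4 target outside the 35 genes, differed in opposite directions in the regions. Its cortex values were 36.2, 36.0 and 33.9 FPKM in Con and 40.8, 41.4 and 37.9 FPKM in IR. Hippocampus values were 44.0, 44.9 and 39.9 FPKM in Con and 35.9, 36.1 and 35.3 FPKM in IR. The groups did not overlap in either tissue. The interaction was -0.43 on the log2 scale (unadjusted p = 0.000202, adjusted p = 0.109 from limma), and without IR 1 the log2 fold changes were 0.16 and -0.26. *Psat1* was chosen after its values were seen.

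Of the 104 genes of the wider list, 10 had an unadjusted limma p under 0.05 for the interaction, where 10.3% of all tested genes did. The hippocampus change was the higher for 5 of them, the transporters *Slc7a11* and *Slc7a3* and *Sesn2*, *Sec61g* and *Creb3l1* (0.30 to 0.52 on the log2 scale), and the cortex change for the other 5, *Psat1*, *Vimp*, *Spcs2*, *Edem3* and *Cebpg* (-0.43 to -0.22). Their adjusted p were 0.109 to 0.48 from limma.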
